A study of Drosophila melanogaster with 32 samples.

Results

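The blocks of the satellite repeat whose buoyant density gave the deletion PoX2[Df1.688] its name, called SAR_DM by RepeatMasker, were followed on chromosome arm 3L of Drosophila melanogaster as RNA in whole adult flies. They were taken as every row of the block count table that lies on 3L, which gave 74 of 652 blocks. The other blocks lie on the X chromosome (107), on 2L (15), on 2R (2) and on unplaced scaffolds (454).

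The study asked how loss of POF, a protein that binds this satellite, or of parts of the satellite itself, bears on RNA from the chromosomes. Total RNA depleted of rRNA was sequenced from males and virgin females of 4 genotypes, with 4 samples in each of the 8 groups and 10 pooled flies per sample (3 isolated 6 to 8 h, 4 isolated 14 to 16 h and 3 isolated 22 to 24 h after hatching). All flies were kept at 25 °C, the stocks were not isogenized, and the labels give no batch. Wild type was Oregon R. Pof[D119] is a deletion that uncovers the coding region of Pof, Zhr[1] lacks the large pericentromeric array of this satellite on the X chromosome, and PoX2[Df1.688] lacks a short run of its repeats downstream of CG1840 on the X chromosome. In the Zhr[1] stock the Y chromosome of the males was an ordinary one, without a translocation. In whole flies, fewer cells of a type and less RNA per cell cannot be told apart.

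The satellite is a family of tandem repeats. Its largest array fills pericentromeric heterochromatin of the X chromosome, short arrays lie between genes of the X euchromatin, and diverged arrays lie in the heterochromatin of other chromosomes, 3L among them. Satellite DNA is mostly silent chromatin, but RNA from it is found in flies, and arrays that resemble each other give reads that can be placed in several of them.

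The 74 blocks lay between positions 24593103 and 27082102 of 3L (release 6 coordinates), in the proximal part of the arm, and covered 88284 bp. They were 287 to 9524 bp long with a median of 580.5 bp. They are numbered here 1 to 74 in the direction of the centromere. Annotated SAR_DM repeats covered a median of 100% of a block and at least 63.6% of each, so the members are arrays of this repeat with little else inside. Splitting wherever 10000 bp or more separated neighbours gave 6 positional groups. Group 1 (blocks 1 to 17, 24593103 to 24658868) held 53636 bp and all 6 blocks of 2500 bp or more, interrupted by a pogo transposon between blocks 7 and 8 (24616745 to 24618090) and by remnants named DOC (4718 bp) and BS2 (4708 bp). Group 2 (blocks 18 to 29, 24672036 to 24685821) followed after 13167 bp that hold annotated opus and G6 elements. A stretch of 2192325 bp without blocks then separated it from group 3 (blocks 30 to 34, 26878147 to 26881900). Group 4 (blocks 35 to 52, 26936795 to 26952489), group 5 (blocks 53 to 62, 27006464 to 27011121) and group 6 (blocks 63 to 74, 27068580 to 27082102) completed the series.

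The groups differed in their make-up. In group 5 successive blocks started a median of 354 bp apart and 9 of the 10 were 321 to 343 bp long, so this group is a run of blocks near the length of a monomer around the single longer block 55. In group 6 only 37.7% of the span lay within blocks. Some runs recur: blocks 45 and 49 (355 bp each) had the same counts in all 32 libraries (87 in total), as did blocks 46 and 50 (607 bp each, 304 in total), and the run of blocks 45 to 47 (550 counts) matched in lengths the run of blocks 49 to 51 (569 counts) 2822 bp away. Blocks 31 and 32 matched blocks 36 and 37 in the same way across groups 3 and 4 (299 and 309 counts). The deposited counts give a read in full to every place it maps to, so such blocks share reads and are not independent observations.

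Only 1 of the 74 blocks touched an annotated gene: block 74 overlapped the first 12 bp of CG40228 (27082091 to 27083906). The nearest gene to group 1 was the noncoding gene CR41597, 38903 bp away, and the nearest to group 2 was scro, which encodes an NK-2 family homeodomain transcription factor, 38341 bp away. Groups 3, 4 and 5 lay 200191, 129602 and 70970 bp from CG40228.

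The gene table held 12186486 to 37992591 counts per library and 3L blocks 460 to 2725, with 40655 over all libraries. These numbers limit what single blocks can show: 31 of the 74 blocks passed the filter on low counts in females, 44 in males and 56 in the fit of both sexes. The deleted loci were read first. Pof stood at 306 to 341 counts-per-million of gene counts (CPM) in wild-type males and 11.4 to 13.8 in Pof[D119] males, and at 12.9 to 14.4 in wild-type against 6.59 to 9.93 in Pof[D119] females. The block of the PoX2 deletion (X, 11889258 to 11891752) had 0 counts in PoX2[Df1.688] females against 90 in wild-type females, and 4 against 44 in males. Blocks on unplaced scaffolds summed to 48.5 to 64.4 CPM in Zhr[1] females against 227 to 276 in wild-type females, and to 156 to 216 against 208 to 303 in males. Replicate 2 of the wild-type males stood apart in the yolk protein genes Yp1, Yp2 and Yp3, which mark female fat body, with 358 CPM where the others had 6.73 to 8.65. In Zhr[1] males these genes stood at 46.6 to 127 CPM. Without that library the 3L calls described below were 31 instead of 29 for Zhr[1] males, 19 instead of 20 for PoX2[Df1.688] males, 2 instead of 3 for Pof[D119] males and 23 instead of 24 for wild-type males against females.

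Summed over the 74 blocks, RNA from 3L was higher in males than in females of every genotype, with the largest sums in males that carried Zhr[1] or PoX2[Df1.688]. Wild-type females had 22.7, 27.8, 28.9 and 31.5 CPM and wild-type males 53.8, 71.1, 72.2 and 81.1 CPM, so that the sexes did not overlap. The mean was 27.7 ± 3.69 CPM (SD, n = 4) in females and 69.5 ± 11.4 in males. Pof[D119] had 30.3 ± 3.09 CPM in females and 57.7 ± 5.35 in males, and both overlapped wild type of their sex. Zhr[1] females, with 35.2 ± 5.52 CPM, also overlapped wild type. Zhr[1] males had 108, 110, 133 and 163 CPM, all above wild type, and their mean was 1.85 times as high. Blocks 11 to 17 alone gave 75.1 of the 129 CPM in these males and 12 of the 69.5 CPM in wild type. The other 67 blocks, a sum added after the values were seen, had 42, 53.5, 58.9 and 59.3 CPM in Zhr[1] males and 45.6, 56.6, 59.5 and 68.6 CPM in wild-type males, which overlapped (0.928 times). As a mean over blocks of CPM per kb, the log2 ratio was 0.22, against 0.89 for the sum. PoX2[Df1.688] lay above wild type in all libraries of both sexes, with 43.0, 61.3, 72.3 and 76.6 CPM in females (2.29 times) and 89.4, 108, 124 and 128 CPM in males (1.61 times). As a share of all block counts, 3L made up 8.04 to 9.82% in wild-type females and 26.6 to 30.3% in Zhr[1] females, where the blocks on unplaced scaffolds were low, and 17.8 to 19.7% against 36.1 to 39.7% in males. A sum counts a shared read once for each block it falls in, and no test was made on it.

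**Figure D1:**
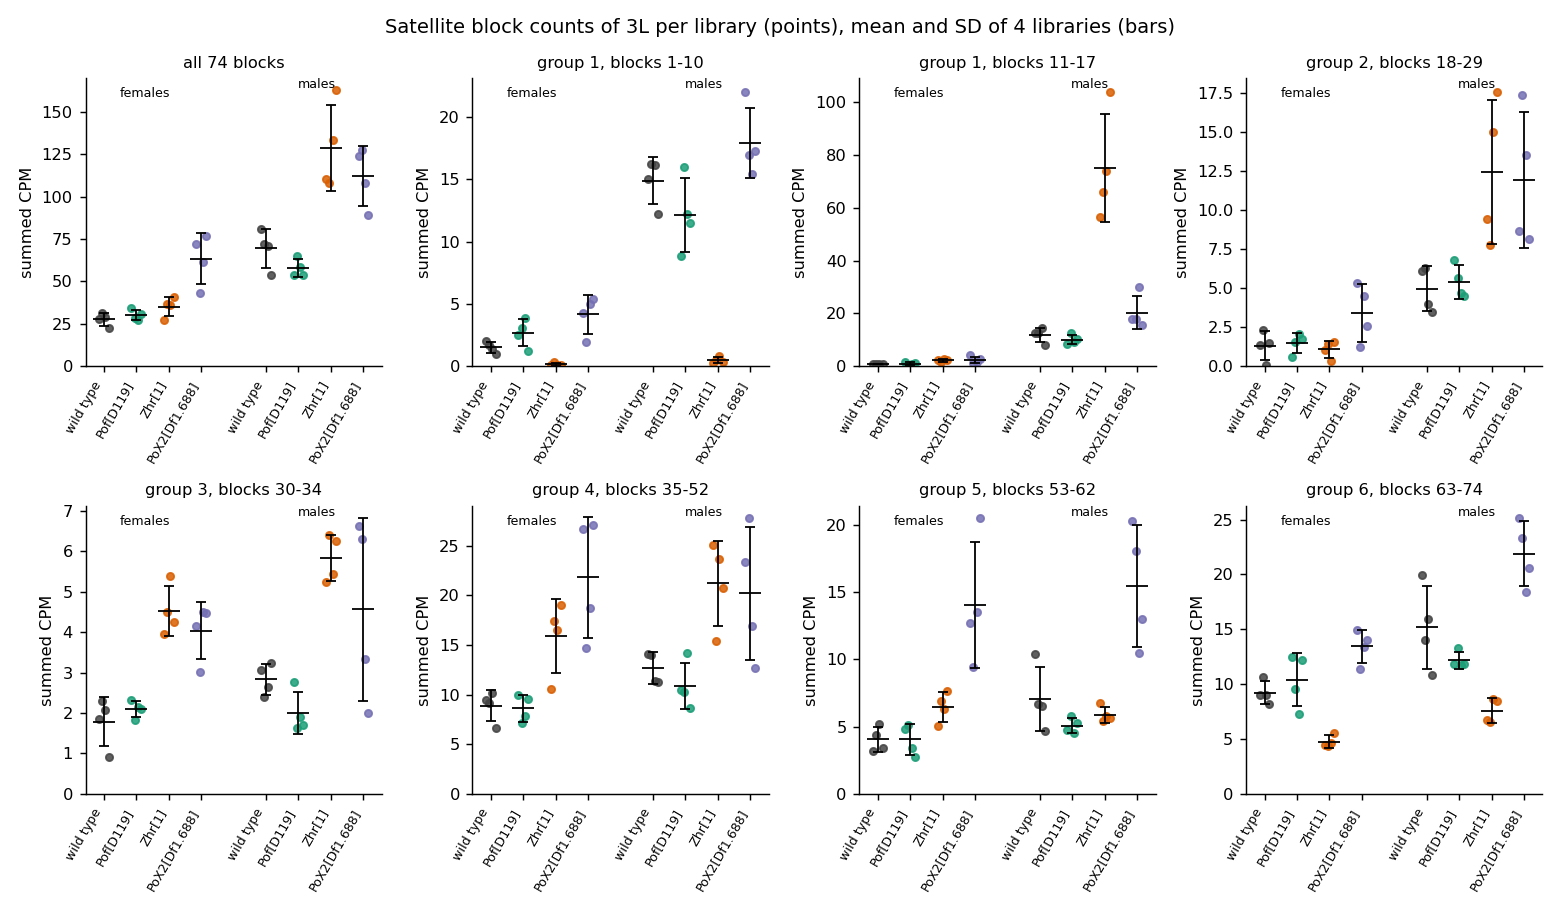
CPM (counts-per-million of gene counts) summed over all 74 blocks and over each stretch of 3L, for the 4 libraries of each genotype and sex; points are libraries and bars the mean and SD. Blocks 1 to 10 were near 0 in Zhr[1] flies while blocks 11 to 17 reached 56.7 to 104 CPM in Zhr[1] males, against 8.16 to 14.5 CPM in wild-type males.

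Levels differed along the arm. Per kb of block, wild-type females had a mean of 0.0451 CPM per kb in group 1, 0.131 in group 2, 0.605 in group 3, 0.736 in group 4, 0.930 in group 5 and 1.81 in group 6. Wild-type males had 0.501, 0.488, 0.960, 1.05, 1.61 and 2.97 CPM per kb in the same order. The blocks nearest to the centromere thus had the most counts per length in both sexes, and the distal groups 1 and 2 had the fewest. The aligner was run at default settings, and how many reads from long, uniform arrays it left unplaced was not measured. These levels can therefore differ from the RNA made by each block. Group 1 held 60.8% of the length and 32.7% of the counts, whereas group 6 held 5.78% of the length and 19.6% of the counts. The block with the highest level per length in the series was block 67 in group 6 (27071833 to 27072156, 324 bp), with a mean of 4.69 CPM per kb over the 32 libraries. Its wild-type libraries were at 1.16, 1.24, 1.35 and 1.48 CPM in females and 1.20, 1.41, 2.37 and 2.53 CPM in males, which overlap.

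Over the arm as a whole, shorter blocks had more reads per length. The 35 blocks under 500 bp had a median of 0.866 CPM per kb, the 19 of 500 to under 1000 bp 0.626, the 14 of 1000 to under 2500 bp 0.506, and the 6 of 2500 bp or more, all in group 1, 0.233. Across the 74 blocks, which share reads and libraries, Spearman's rho of length was 0.42 with the CPM and -0.24 with the CPM per kb, given as a description. Over the arm longer blocks gathered more counts but fewer per length, and this cannot be told apart from position, as group 1 was low. Within group 1, blocks 11 and 12 had 1.11 and 1.16 CPM per kb and the long blocks 2, 7, 8 and 9 had 0.104, 0.180, 0.178 and 0.285. Its 3 blocks under 500 bp had 0.116, 0.264 and 0.225. In groups 2 and 3 the longest blocks, 20 (0.903) and 30 (2.08), had the highest level per kb.

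**Figure D2:**
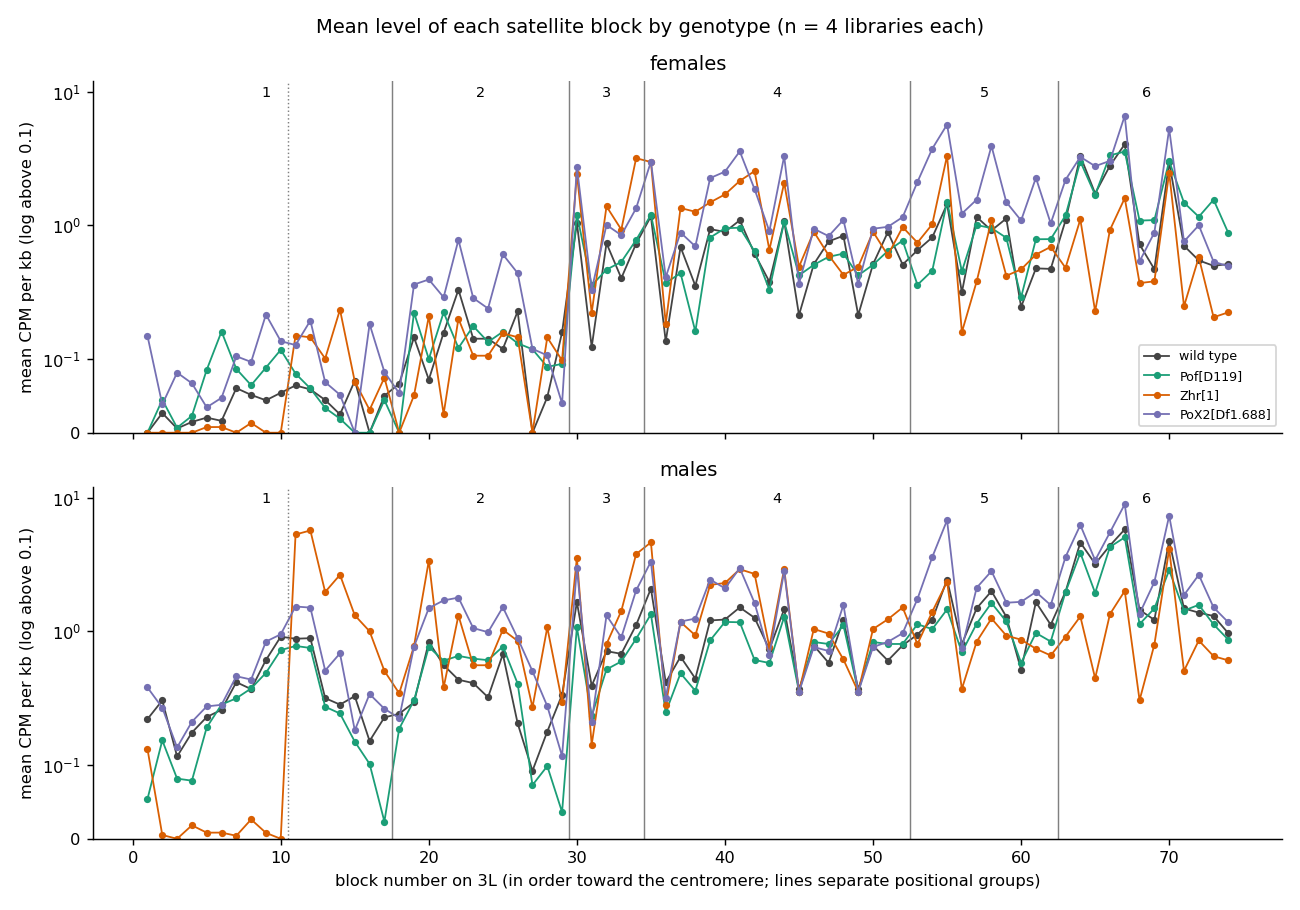
Mean CPM per kb of each of the 74 blocks (n = 4 libraries per genotype and sex) by block number, females above and males below; the vertical axis is linear below 0.1 and logarithmic above. Groups 1 and 2 are the lowest in females, and in Zhr[1] males the line passes from near 0 at block 10 to 5.30 CPM per kb at block 11.

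Zhr[1] was compared with wild type to read RNA from the other arrays in flies without the pericentromeric X array. As the stocks were not isogenized, the deletion cannot be told apart from other differences between stocks, on 3L too. This holds for Pof[D119] and PoX2[Df1.688] as well. Neighbouring stretches of 3L moved in opposite directions. In group 1 all blocks tested among 1 to 10 fell in both sexes and all tested among 11 to 17 rose in males. Most calls in groups 3 and 4 were rises and all calls in group 6 were falls, again in both sexes. In females 9 of 31 tested 3L blocks were higher and 10 lower (edgeR quasi-likelihood test, adjusted p under 0.05 over all blocks tested), where 8.93% of the 291 blocks tested in the whole table were higher and 67.4% lower. In males 17 of 44 were higher and 12 lower, against 25.9% higher and 56.1% lower of 278. The median log2 fold change of the tested 3L blocks was 0.74 in females and 0.36 in males, while that of all tested blocks was -5.36 and -1.996 (-2.67 and -1.53 with groups at 0 set to a floor of 3 counts). The low medians came from blocks on unplaced scaffolds, at -3.16 and -2.71 with that floor. Blocks on the X chromosome had 0.18 and 0.64, and those on 2L 0.42 and -0.27. On the X chromosome 5 of 34 were higher and 4 lower in females, and 12 of 32 higher and 4 lower in males. When scaled to the block table's own totals the split of 3L calls became 9 higher and 14 lower in females and 6 higher and 26 lower in males. With library sizes but no normalization factor it was 11 higher and 8 lower in females.

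Blocks 1 to 10 (24593103 to 24637049, 37092 bp) were almost without reads in Zhr[1] flies. Their sum was 0.951, 1.38, 1.72 and 2.02 CPM in wild-type females and 0.0598, 0.101, 0.133 and 0.310 CPM in Zhr[1] females, a 10.1-fold difference. It was 12.2, 15.0, 16.2 and 16.2 CPM in wild-type males and 0.298, 0.305, 0.533 and 0.786 CPM in Zhr[1] males, a 31-fold difference. Neither pair of groups overlapped. The cut between blocks 10 and 11 was placed after the values were seen, and both the sums and the counts of calls given for blocks 1 to 10 and 11 to 17 use it. All 3 tested blocks of this stretch fell in females and all 5 in males.

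Block 7 (24609878 to 24616742, 6865 bp), which ends at the pogo element, had 0.277, 0.366, 0.413 and 0.596 CPM in wild-type females and no count in the 4 Zhr[1] female libraries. Against a floor of 3 counts over the group it was at least 9.73-fold lower. In males it had 1.65, 2.98, 3.30 and 3.45 CPM in wild type and 2 counts over the Zhr[1] libraries against 357, an 89.8-fold lower ratio with a 95% counting interval of 24.7 to 744. Block 8 (24618094 to 24627617), the longest of the arm, lies on the other side of the pogo element. It had 2.36, 3.78, 3.84 and 4.04 CPM in wild-type males and 0.0762, 0.238, 0.281 and 0.400 CPM in Zhr[1] males, a log2 fold change of -3.72 ± 0.35 (SE; edgeR adjusted p = 1.21e-11). In females it fell by 1.92 ± 0.63 on the log2 scale (edgeR adjusted p = 0.00646).

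Block 9 (24627689 to 24636068, 8380 bp) had 0 counts in Zhr[1] females against 46 in wild type, which is at least 9.14-fold lower, and 1 of the 4 wild-type female libraries was also at 0. In males it had 4.49 to 5.63 CPM in wild type and 0 to 0.152 CPM in Zhr[1], a log2 fold change of -6.15 ± 0.44 (edgeR adjusted p = 2.34e-14). Block 10 (24636137 to 24637049, 913 bp) had 0 counts in Zhr[1] males against 101 in wild type, at least 16.9-fold lower. Counting intervals and floors cover counting error only.

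The adjoining blocks 11 to 17 (24637212 to 24658868, 16544 bp) begin 162 bp further on and went the other way. Their sum was 8.16, 12.5, 12.7 and 14.5 CPM in wild-type males and 56.7, 66.1, 74 and 104 CPM in Zhr[1] males, 6.29 times as high. In females it was 0.828, 0.862, 0.894 and 1.02 CPM in wild type and 1.55, 2.45, 2.46 and 2.66 CPM in Zhr[1], 2.53 times as high. The groups did not overlap in either sex, and all 4 blocks tested in males and 1 of 2 in females rose. This stretch made up most of the 3L sum of Zhr[1] males, 75.1 ± 20.4 of 129 ± 25.5 CPM (SD, n = 4).

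Block 12 (24641004 to 24649369, 8366 bp) carried most of it. Wild-type males had 5.13, 7.45, 7.80 and 9.27 CPM and Zhr[1] males 34.3, 43.8, 46.4 and 65.6 CPM, all above wild type, with a log2 fold change of 2.71 ± 0.25 (edgeR adjusted p = 8.42e-12). In females it had 0.364, 0.481, 0.523 and 0.585 CPM in wild type and 0.775, 1.20, 1.36 and 1.50 CPM in Zhr[1], again with no overlap (1.27 ± 0.40, edgeR adjusted p = 0.00452). Block 14 (24656083 to 24657098, 1016 bp) had the largest rise among the blocks tested in males, from 0.141 to 0.470 CPM in wild type to 1.53 to 3.73 CPM in Zhr[1] (3.25 ± 0.35, edgeR adjusted p = 2.60e-10). It passed the filter on low counts in males largely through the Zhr[1] libraries. Block 11 (24637212 to 24640982, 3771 bp) rose in males from 2.14 to 3.90 CPM to 15.9 to 28.7 CPM (2.62 ± 0.25, edgeR adjusted p = 1.69e-11), while in females its change of 1.18 ± 0.58 was not called (edgeR adjusted p = 0.0633).

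**Figure D3:**
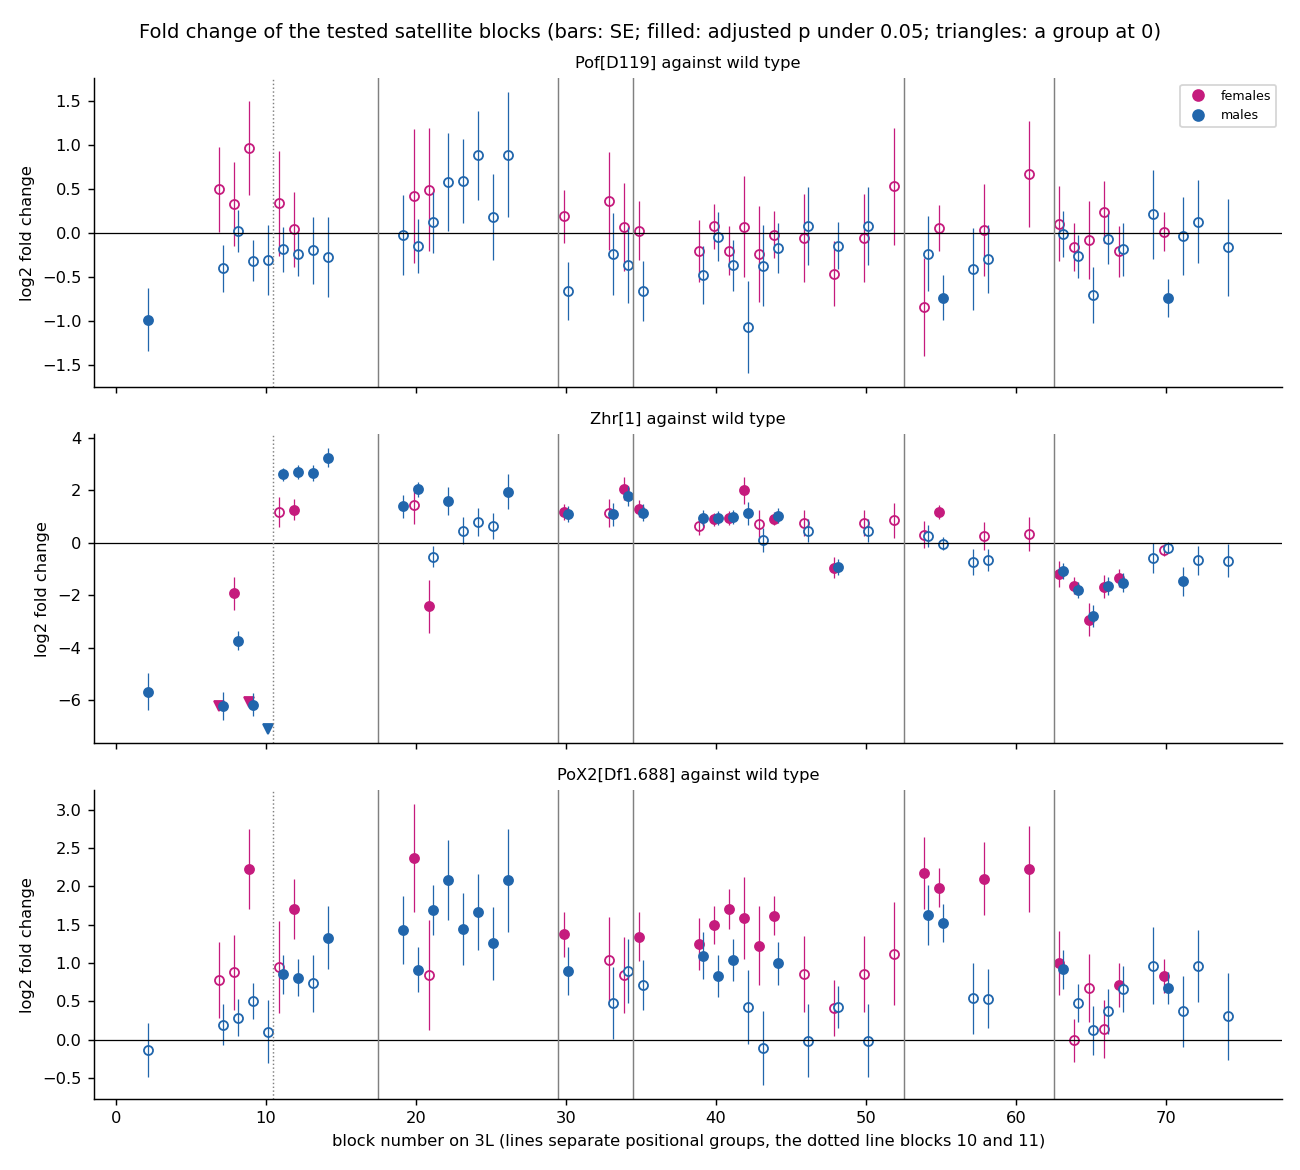
Log2 fold change against wild type by block number for the blocks tested in each sex (bars are SE, filled symbols have an adjusted p under 0.05, triangles have a group at 0 counts and a fitted value that is no bound). For Zhr[1] the filled symbols lie below 0 up to block 10 and in group 6, and above 0 between them other than at blocks 21 and 48, while no filled symbol of PoX2[Df1.688] lies below 0.

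In group 2, 4 of the 8 blocks tested in Zhr[1] males rose. Block 20 (24674217 to 24676392), the longest of the group, had 1.30, 1.37, 1.96 and 2.59 CPM in wild-type males and 5.26, 6.1, 8.59 and 9.38 CPM in Zhr[1] males (2.05 ± 0.28, edgeR adjusted p = 5.83e-08). In females its change of 1.46 ± 0.73 was not called (edgeR adjusted p = 0.0680). Its neighbour block 21 (24676615 to 24678631), named after its values were seen, fell in females from 0 to 0.523 CPM to 0 to 0.103 CPM (-2.42 ± 1.00, edgeR adjusted p = 0.0289) and was not called in males.

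Group 3 was higher in Zhr[1] flies of both sexes. Block 34 (26881547 to 26881900, 354 bp), with the largest rise among blocks tested in females, had 0.183, 0.206, 0.308 and 0.331 CPM in wild-type and 0.732, 0.981, 1.32 and 1.46 CPM in Zhr[1] females (2.08 ± 0.45, edgeR adjusted p = 0.000107). Among females it passed the filter on low counts only with the Zhr[1] libraries, so its place as the largest rise depends on them. In males it went from 0.242 to 0.563 CPM to 1.07 to 1.80 CPM (1.79 ± 0.38, edgeR adjusted p = 6.49e-05). Neither sex overlapped with its wild type. Block 30 (26878147 to 26879030, 884 bp), the longest of the group, rose by 1.18 ± 0.29 in females and 1.11 ± 0.30 in males on the log2 scale (edgeR adjusted p = 0.000445 and 0.00122).

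In group 4, 5 of 11 blocks tested in females rose and 1 fell, and 6 of 10 rose and 1 fell in males. Block 35 (26936795 to 26937301, 507 bp), which had the highest level per length there, had 0.439 to 0.8 CPM in wild-type and 1.26 to 1.81 CPM in Zhr[1] females (1.31 ± 0.32, edgeR adjusted p = 0.000387), and 0.627 to 1.34 against 2.13 to 2.97 CPM in males (1.16 ± 0.31, edgeR adjusted p = 0.000937). Block 40 (26941410 to 26943395, 1986 bp), the longest, rose by 0.90 ± 0.25 in females and 0.95 ± 0.27 in males (edgeR adjusted p = 0.00158 and 0.00197). Block 42 (26944787 to 26945141, 355 bp) rose by 2.01 ± 0.52 in females (edgeR adjusted p = 0.000739). The block that fell was in both sexes block 48 (26949154 to 26950241, 1088 bp), named after its values were seen, by 0.94 ± 0.40 and 0.91 ± 0.30 on the log2 scale (edgeR adjusted p = 0.0346 and 0.00696). In males, the rises of blocks 30, 35 and 40 did not pass when the block table's own totals set the scale, at 0.30, 0.35 and 0.14.

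Group 6 was lower. Its sum was 8.19, 9.01, 9.01 and 10.7 CPM in wild-type and 4.34, 4.49, 4.68 and 5.59 CPM in Zhr[1] females, and 10.8, 14.0, 15.9 and 19.9 against 6.53, 6.73, 8.46 and 8.64 CPM in males, with no overlap in either sex. In females 5 of 6 tested blocks fell and in males 6 of 10. Block 65 (27070496 to 27070820, 325 bp), also named after its values were seen, had 0.329, 0.378, 0.739 and 0.795 CPM in wild-type and 0, 0.0598, 0.101 and 0.133 CPM in Zhr[1] females (-2.92 ± 0.63, edgeR adjusted p = 0.000101). In males it had 0.773 to 1.42 against 0.112 to 0.179 CPM (-2.78 ± 0.44, edgeR adjusted p = 6.34e-07). Block 67, with the highest level per length, fell by 1.35 ± 0.34 in females and 1.52 ± 0.36 in males on the log2 scale (edgeR adjusted p = 0.000547 and 0.000250). Block 70 (27076300 to 27077235, 936 bp), the longest of the group, did not pass in either sex, at 2.06 to 2.63 CPM in Zhr[1] against 2.48 to 2.89 CPM in wild-type females (-0.28 ± 0.23, edgeR adjusted p = 0.278) and 2.93 to 4.73 against 3.66 to 5.15 CPM in males (-0.18 ± 0.22, edgeR adjusted p = 0.444). Group 5 had 1 call in Zhr[1] females and none in males: block 55 (27007193 to 27008599, 1407 bp) went from 1.39 to 2.61 CPM to 3.65 to 5.66 CPM in females (1.17 ± 0.26, edgeR adjusted p = 0.000112), while its male values of 2.98 to 3.51 CPM lay inside the wild-type range of 2.14 to 5.12 CPM.

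**Figure D4:**
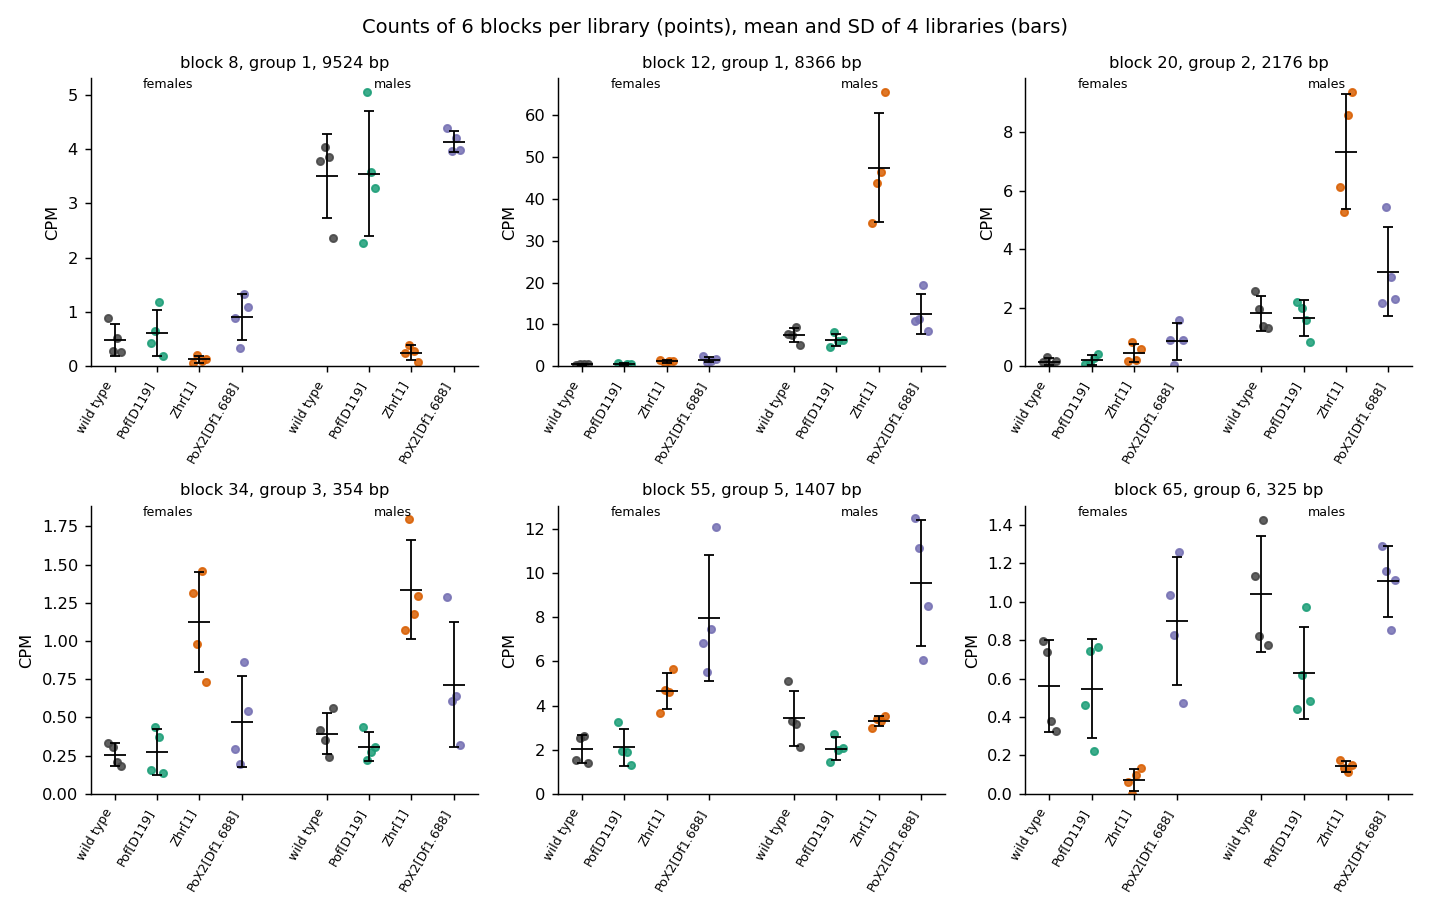
CPM of blocks 8, 12, 20, 34, 55 and 65 in each library; points are libraries and bars the mean and SD of 4. Zhr[1] is the lowest genotype at blocks 8 and 65 and the highest in males at blocks 12, 20 and 34, and at block 55 PoX2[Df1.688] reached 5.53 to 12.1 CPM in females and 6.05 to 12.5 CPM in males.

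Ovarian markers were higher in Zhr[1] and in PoX2[Df1.688] females than in wild type. The 7 ovarian follicle cell genes summed to 1212 to 2813 CPM in Zhr[1] females, 205.2 to 942 in wild type, 3.36 to 645 in Pof[D119] and 1034 to 2589 in PoX2[Df1.688] females, and the 5 female germline genes to 921 to 1214, 488 to 660, 299 to 796 and 760 to 883 CPM. Of the 3 female fat body genes 0 were called in either mutant. The part of these tissues in the female block values of Zhr[1] and PoX2[Df1.688] was not tested. A read that maps both to a 3L block and to a block on an unplaced scaffold is counted in both, and the latter were low in Zhr[1] flies. Their part in the falls was not tested.

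PoX2[Df1.688] flies lack a short array on the X chromosome, and the comparison asks whether RNA of the satellite from elsewhere differs. All calls on 3L were rises in both sexes: 18 of 31 blocks rose in females and 20 of 44 in males, with 0 lower (0 by DESeq2). Of all blocks tested, 77.7% of 291 in females and 59.7% of 278 in males were higher (2.06% and 0.719% lower). Most of these lay on unplaced scaffolds, where 185 of 219 were higher in females and 120 of 196 in males. On the X chromosome 19 of 34 and 21 of 32 were higher, and on 2L 4 of 7 and 5 of 6. The median log2 fold change of 3L blocks, 1.12 in females and 0.77 in males, was below that of all tested blocks, 1.38 and 1.07. With the block table's own totals as the scale, which lowered the values of the same blocks by a median of 1.32 and 1.20, the 3L calls were 1 higher and 2 lower in females and 0 higher and 13 lower in males.

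Group 5 was higher in both sexes. Its sum was 3.21, 3.44, 4.37 and 5.23 CPM in wild-type and 9.41, 12.7, 13.5 and 20.5 CPM in PoX2[Df1.688] females, 3.45 times as high. It was 4.68, 6.51, 6.66 and 10.4 CPM in wild-type males and 10.5, 13, 18 and 20.3 CPM in PoX2[Df1.688] males, 2.19 times as high. All 4 of its tested blocks rose in females and 2 of 4 in males. Most of those tested in females, block 61 among them, passed the filter on low counts only with the PoX2[Df1.688] libraries. That all rose in females was thus largely set by the filter. Block 55 had 1.39, 1.56, 2.52 and 2.61 CPM in wild-type and 5.53, 6.81, 7.47 and 12.1 CPM in PoX2[Df1.688] females (1.98 ± 0.25, edgeR adjusted p = 9.72e-08), and 2.14, 3.15, 3.29 and 5.12 against 6.05, 8.51, 11.1 and 12.5 CPM in males (1.53 ± 0.25, edgeR adjusted p = 3.15e-06). Neither sex overlapped. Block 61 (27010444 to 27010764, 321 bp) rose from 0.0662 to 0.309 CPM to 0.592 to 1.02 CPM in females (2.23 ± 0.57, edgeR adjusted p = 0.000752).

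Group 2 also rose in males, where the sum went from 3.45, 4.01, 6.07 and 6.27 CPM to 8.12, 8.68, 13.5 and 17.3 CPM, 2.41 times as high. All 8 tested of its 12 blocks were called. Several of them, blocks 22 and 26 included, passed the filter on low counts only with the PoX2[Df1.688] libraries. That all 8 were called was thus partly set by the filter. Blocks 22 (24678758 to 24679214, 457 bp) and 26 (24683025 to 24683680, 656 bp) had the largest male rises, each of 2.08 on the log2 scale, from few reads: 25 and 18 counts over the wild-type male libraries against 47 and 33. In females block 20 had the largest rise, from 0 to 0.308 CPM to 0.0485 to 1.59 CPM (2.37 ± 0.70, edgeR adjusted p = 0.00309), with 1 of the 4 PoX2[Df1.688] libraries inside the wild-type range. There too it passed the filter only with the PoX2[Df1.688] libraries. In group 4, 7 of 11 tested blocks rose in females and 4 of 10 in males. Block 40 had 0.951 to 2.41 CPM in wild-type and 3.05 to 6.99 CPM in PoX2[Df1.688] females (1.49 ± 0.25, edgeR adjusted p = 4.65e-06).

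Group 1 differed from its Zhr[1] pattern. Blocks 1 to 10 summed to 12.2 to 16.2 CPM in wild-type and 15.5 to 22.0 CPM in PoX2[Df1.688] males, which overlap. Of the 5 blocks tested there, block 9 came closest to a call, with 4.49 to 5.63 CPM in wild-type and 5.37 to 9.11 CPM in PoX2[Df1.688] males (0.51 ± 0.23, edgeR adjusted p = 0.0595). In females block 9 rose from 0 to 0.893 CPM to 0.776 to 2.78 CPM (2.23 ± 0.52, edgeR adjusted p = 0.000384). Block 12 rose in both sexes, from 0.364 to 0.585 CPM to 1.12 to 2.44 CPM in females (1.71 ± 0.39, edgeR adjusted p = 0.000286) and from 5.13 to 9.27 CPM to 8.51 to 19.5 CPM in males (0.81 ± 0.24, edgeR adjusted p = 0.00424). In group 6, block 70 rose from 2.48 to 2.89 CPM to 3.05 to 6.44 CPM in females (0.83 ± 0.22, edgeR adjusted p = 0.00121) and from 3.66 to 5.15 CPM to 6.20 to 7.48 CPM in males (0.67 ± 0.21, edgeR adjusted p = 0.00590).

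Several of these calls were lost when 1 library was left out. Without PoX2[Df1.688] male replicate 2, blocks 20 (0.54), 26 (1.77) and 40 (0.51) were no longer called, and without replicate 3 block 12 (0.52) was not. Block 30, at 0.90 ± 0.31 (edgeR adjusted p = 0.0117), was lost without wild-type male replicate 2 (0.74) or PoX2[Df1.688] male replicate 1 (0.71) or 2 (0.64). In females block 67, at 0.72 ± 0.29 (edgeR adjusted p = 0.0228), was lost without wild-type female replicate 1 (0.67) or PoX2[Df1.688] female replicate 1 (0.61) or 2 (0.68).

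POF is the protein that coats chromosome 4 and binds arrays of this satellite on the X chromosome. Few 3L blocks were called in Pof[D119] flies. In Pof[D119] females 0 of 31 tested blocks were called in either direction by edgeR or DESeq2, and 0 had an unadjusted edgeR p under 0.05, where 12.7% of the 291 blocks of the table were higher and 0% lower. Their log2 fold changes ran from -0.84 to 0.96 with a median of 0.06, against 0.44 for all tested blocks. Without wild-type female replicate 2, 1 block was called. In males 0 of 44 were higher and 3 lower, against 26.3% higher and 13.7% lower of 278, and DESeq2 called 0 higher and 2 lower. With the block table's own totals 17 were lower.

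The 3 blocks lie far apart. Block 70 in group 6 had 3.66, 4.44, 4.55 and 5.15 CPM in wild-type and 1.99, 2.67, 2.84 and 3.21 CPM in Pof[D119] males, with no overlap (-0.73 ± 0.22, edgeR adjusted p = 0.0103). Block 55 in group 5 had 2.14, 3.15, 3.29 and 5.12 against 1.45, 1.98, 2.06 and 2.70 CPM, which overlapped (-0.73 ± 0.26, edgeR adjusted p = 0.0257). It was lost without wild-type male replicate 1 (-0.48) or Pof[D119] male replicate 1 (-0.61) or 3 (-0.72). Block 2 in group 1 (24593902 to 24597648, 3747 bp) had 0.773, 1.21, 1.22 and 1.33 against 0.311, 0.378, 0.526 and 1.06 CPM (-0.98 ± 0.36, edgeR adjusted p = 0.0290). It was lost without any single one of 6 libraries (wild-type male replicate 1, 2 or 3, or Pof[D119] male replicate 1, 3 or 4, at -0.96 to -0.76) and was not called by DESeq2 (-0.99). Without wild-type male replicate 1, or without Pof[D119] male replicate 1 or 3, only block 70 of the 3 was still called.

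Males had more 3L RNA than females, and in wild type group 1 gave the largest part of the difference, with means of 2.42 CPM in females and 26.8 CPM in males. In wild type 24 of 56 tested blocks were higher in males and 0 lower, against 26.6% higher and 31.2% lower of the 394 blocks tested in the table. The median log2 difference was 0.93 over 3L and -0.38 over all tested blocks. With the block table's own totals 41 were higher and 0 lower, and without wild-type male replicate 1 it was 15. All 7 tested blocks among 1 to 10 and all 4 among 11 to 17 were higher in males. So were 4 of 8 in group 2, 3 of 9 in group 5, 5 of 12 in group 6, 1 of 12 in group 4 and none in group 3. In females alone, only 3 of the 7 and 2 of the 4 passed the filter on low counts. The rest entered the fit of both sexes mostly on male reads. That all were higher in males was thus largely set by the filter.

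Block 12 had 0.364 to 0.585 CPM in wild-type females and 5.13 to 9.27 CPM in wild-type males (3.91 ± 0.32, edgeR adjusted p = 1.74e-14). Block 8 had 0.256 to 0.894 CPM in females and 2.36 to 4.04 CPM in males (2.83 ± 0.35, edgeR adjusted p = 2.31e-09), and block 20 had 0 to 0.308 CPM and 1.30 to 2.59 CPM (3.46 ± 0.52, edgeR adjusted p = 1.87e-07). The sexes did not overlap at any of these. At block 30 of group 3 they did, with 0.596 to 1.26 CPM in females and 0.902 to 1.90 CPM in males (0.66 ± 0.32, edgeR adjusted p = 0.0708). The difference at block 55 (0.76 ± 0.27, edgeR adjusted p = 0.0137) was lost without wild-type male replicate 1 (0.41) and without wild-type female replicate 1 (0.65) or 4 (0.62).

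In the mutants too, males had more RNA than females at blocks 11 to 17, where all 4 tested blocks were called higher in males of every genotype. In Pof[D119] 17 of 56 blocks were higher in males and 0 lower, against 21.6% and 23.9% of all. In PoX2[Df1.688] 17 were higher and 0 lower, against 19.3% and 24.4%. In Zhr[1] 13 were higher and 0 lower, against 12.4% and 0.508%, and these were all 4 tested blocks of 11 to 17, all 8 of group 2 and 1 of group 6. The count was 8 without Zhr[1] female replicate 3 and 7 without Zhr[1] male replicate 4, and with the block table's own totals 8 were higher and 1 lower. Only 2 of the 4 and 2 of the 8 passed the filter in females alone. Here too the filter favoured blocks that are high in males, so these complete counts show no uniform sex difference. At blocks 1 to 10 no sex call was made in Zhr[1], where both sexes were near 0. Block 12 in Zhr[1] stood at 0.775 to 1.50 CPM in females and 34.3 to 65.6 CPM in males (5.30 ± 0.32, edgeR adjusted p = 5.75e-19). Testis genes summed to 0.388 to 2.23 CPM in females and 1118 to 1854 CPM in males, and accessory gland genes to 4.50 to 9.55 and 1931 to 3413 CPM, as the sexes differ in their organs. The part of these tissues in the block differences was not tested.

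Whether a genotype's change differed between the sexes was tested block by block, with 1 call. For Pof[D119] 0 of 56 blocks were called by edgeR (7 with an unadjusted p under 0.05, 0 by DESeq2), and for Zhr[1] 0 of 56 (7 with an unadjusted p under 0.05, 1 by DESeq2), with 0% of the table called in each. At block 12 the Zhr[1] change was larger in males by 1.38 ± 0.45 on the log2 scale (edgeR adjusted p = 0.218), and at block 55 the male minus female value was -1.26 ± 0.38 (edgeR adjusted p = 0.218). For PoX2[Df1.688], 4.82% of the table was called and 1 of 56 3L blocks: block 9, with a male minus female value of -1.74 ± 0.54 (edgeR adjusted p = 0.0495). That call was lost when any of 13 of the 16 libraries was left out, at values of -1.36 to -2.68 over the 16. Of the wild-type libraries only female replicate 2, and of the PoX2[Df1.688] libraries only female replicate 2 and male replicate 1, could be left out without losing it.

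The gene that touches block 74, CG40228, was measured in the gene table from uniquely placed read pairs. It was higher in Pof[D119] females, with 14.0 to 16.9 CPM against 7.61 to 11.9 in wild type (0.53 ± 0.13, edgeR adjusted p = 0.0100), and in females of Zhr[1] (0.37 ± 0.13, edgeR adjusted p = 0.0319) and PoX2[Df1.688] (0.43 ± 0.13, edgeR adjusted p = 0.0307). In males only Pof[D119] passed (0.38 ± 0.11, edgeR adjusted p = 0.0187). CG40228 was lower in males than in females of wild type by 0.35 ± 0.12 on the log2 scale (edgeR adjusted p = 0.0125), and in the mutants by 0.51 to 0.77. Block 74 itself had 0.123 to 0.309 CPM in wild-type females and 0.235 to 0.714 CPM in wild-type males, passed the filter in males only, and was not called for any genotype. scro was lower in Zhr[1] females, with 6.28 to 9.60 CPM against 11.3 to 14.5 CPM (-0.75 ± 0.20, edgeR adjusted p = 0.00829), and was not called in the other mutant groups. CR41597 had 0 counts in all 32 libraries.

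Genes whose products bind satellite DNA, centromeres or heterochromatin were read as a list of 18, all tested. In Zhr[1] females 13 rose and 0 fell, led by cid, the centromeric histone (1.09 ± 0.23, edgeR adjusted p = 0.00188), and cal1, its loading factor (0.81 ± 0.14, edgeR adjusted p = 0.000294), where 20.3% of all genes tested rose and 20.8% fell. In the same females 4 of 5 female germline markers and 3 of 7 follicle cell markers were called higher, with medians of 1.26 and 2.29 on the log2 scale, and their part in this count was not tested. In PoX2[Df1.688] females 5 rose, among them the histone methyltransferase gene G9a (0.55 ± 0.14) and cal1 (0.52 ± 0.14), against 8.9% and 10.5% of genes. There 3 of 5 germline and 2 of 7 follicle cell markers were called higher, and their part was not tested. In Pof[D119] females 2 fell, Pof itself (-0.69 ± 0.14) and the kinetochore gene Cenp-C (-0.52 ± 0.12), against 8.09% and 8.41%. In males the list moved little: for Pof[D119], HP6 (0.85 ± 0.17) and Su(var)3-9 (0.43 ± 0.14), members of the heterochromatin machinery, rose and Pof fell (-4.74 ± 0.09), against 13.6% and 11.6% of genes. For Zhr[1] only Pof fell (-0.24 ± 0.07), against 12.6% and 10.4%, and for PoX2[Df1.688] only the gene for the heterochromatin protein HP1a (-0.25 ± 0.08), against 11.5% and 9.42%. Between the sexes 12, 11, 15 and 14 of the 18 were lower in males and 3 higher in wild type, Pof[D119], Zhr[1] and the PoX2 deletion, where 26.2%, 28.7%, 27.5% and 25.4% of all genes were lower and 34.3%, 32.9%, 43% and 36.2% higher.

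The genes for transcription from piRNA clusters and for piRNA function gave 10 matches of 11 names. In Zhr[1] females 4 of 10 rose, with moon (1.17 ± 0.27) and Boot (0.76 ± 0.22) first, against 20.3% of all genes. In PoX2[Df1.688] females Trf2 rose (0.29 ± 0.07), against 8.9% of genes, and in Pof[D119] females del fell (-0.82 ± 0.25), against 8.41%. Of 9 tested in males, aub, which encodes a Piwi-family protein, fell in Pof[D119] (-0.66 ± 0.14), Zhr[1] (-0.56 ± 0.15) and PoX2[Df1.688] (-0.86 ± 0.15), with del in Pof[D119] (-0.57 ± 0.12) and Nxf3 in Zhr[1] (-0.43 ± 0.15), while Trf2 rose in Zhr[1] (0.42 ± 0.06). Of all genes 11.6%, 10.4% and 9.42% fell in these males, and 12.6% rose in Zhr[1] males. These genes are mostly active in the germline, whose female markers moved with genotype as given above, and 9 of 10 were lower in males than in females of each genotype, against 25.4% to 28.7% of all genes. Over the full lists the Zhr[1] change was lower in males than in females for 9 of 18 and 6 of 10 genes and higher for 0. Of all genes tested 13.5% were lower and 9.39% higher. Outside the lists, scro was higher (0.76 ± 0.28, edgeR adjusted p = 0.0468). For Pof[D119] 1 of 18, Pof itself, and 0 of 10 were lower, against 0.677% of all genes (0.727% higher). For PoX2[Df1.688] 3 of 18, among them G9a, and 1 of 10, aub, were lower, against 2.83% (2.9% higher).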

How the data were processed

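Whole flies of 4 genotypes and both sexes gave 32 RNA libraries, 4 per group, grouped by the labels. The authors trimmed reads with Trimmomatic 0.36, removed rRNA reads with SortMeRNA, aligned them with STAR 2.5.4b to genome release 6 and counted with featureCounts 1.6.3. They built blocks of the 1.688 satellite (SAR_DM) from BLAST hits merged within 20 bp and kept those of at least 269 bp. The deposited values are raw counts in 3 tables. In the block table the authors counted single reads, each place of a multiply mapped read in full and without strand, so similar blocks share reads. In the gene table they counted read pairs with unique places, and in the repeat table pairs per RepeatMasker name. Replicates were separate pools of flies. Columns used here all match a sample.

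Block counts were tested with edgeR 4.0.16 (R 4.3.3; filterByExpr, quasi-likelihood F test, two-sided, Benjamini-Hochberg over all blocks tested, threshold 0.05), with library sizes and TMM factors (0.892 to 1.13) of the gene table. Mutants were compared within a sex (16 libraries), and sexes and their interaction with genotype in 1 fit of 32. SE is the fold change divided by the root of F. CPM uses the same scaling. DESeq2 1.42.0 was an alternative, as were other scalings, filters, fits with a replicate block and leaving out each library. The procedure was tested on simulated data. Genes were tested likewise on the gene table.

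Blocks named are, in each positional group, the longest and the one with the highest mean CPM per kb, and in each comparison the 2 called blocks with the largest change each way. Genes named are those that overlap or lie nearest to a group and the 2 called genes with the largest change each way in 2 lists. The members, lists and rules were chosen with earlier results of these data known. Depth was 12186486 to 37992591 gene counts per library, and counts of single blocks, not this depth, limit precision. The genome sequence of the blocks was not used here.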

Additional observations from a re-analysis of the deposited data

Results flagged for a closer look

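In 8 of 177 group values examined (groups with at least 40 counts over 4 libraries) a single library lay far from the other 3, where chance gives about 1 in 20. A high library was seen for group 6 in Pof[D119] males at 13.3 CPM (next 11.8), for blocks 11 to 17 in PoX2[Df1.688] males at 29.8 CPM (next 18), for block 11 in PoX2[Df1.688] males at 8.62 CPM (next 4.98), for block 35 in Zhr[1] males at 2.97 CPM (next 2.14), for block 40 in wild-type males at 3.04 CPM (next 2.29) and for block 61 in PoX2[Df1.688] females at 1.02 CPM (next 0.661). A low library was seen for block 8 in wild-type males at 2.36 CPM (next 3.78) and for block 35 in PoX2[Df1.688] females at 1.02 CPM (next 1.63).

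The change in PoX2[Df1.688] was called different between the sexes at block 9 (-1.74, males minus females, edgeR). That call was lost when any of 13 of the 16 libraries was left out, and also without normalization factors or with a replicate block. Among the genes named, the Zhr[1] change differed between the sexes for scro (0.76), Boot (-1.19), Cenp-C (-0.68), G9a (-0.68), Nxf3 (-0.998), the HP1a gene (-0.54), aub (-1.06), cal1 (-0.83), del (-0.88) and moon (-3.12), the PoX2[Df1.688] change for G9a (-0.60) and aub (-1.28), and the Pof[D119] change for Pof itself (-4.06), all as log2 values of males minus females by edgeR.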

How the results depend on the processing

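Of 62 results for single blocks, 41 kept direction and call under every other setting in which the block was still tested. With each library left out 50 did, and 38 did under both. Of 449 values under other settings 20 were no longer called and 7 reversed. All 7 came from scaling to the block table's own totals in PoX2[Df1.688]: block 67 (-0.59) and block 70 (-0.53) in females, and blocks 12 (-0.38), 20 (-0.30), 30 (-0.36), 40 (-0.40) and 70 (-0.53) in males. That scaling also moved the counts of called 3L blocks to 17 for Pof[D119] males, 3 and 13 for PoX2[Df1.688] females and males, 41 and 29 for males against females in wild type and PoX2[Df1.688], and 1 for the Zhr[1] interaction, where DESeq2 also called 1. It fixes the sum of the block table, which differs between genotypes.

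A filter of at least 50 counts in 4 libraries left fewer blocks and calls: 4 and 12 for Zhr[1] females and males, 4 and 9 for PoX2[Df1.688], and 8, 6, 4 and 8 between the sexes in the order wild type, Pof[D119], Zhr[1], PoX2[Df1.688]. For Pof[D119] females no filter and the fit of all 32 libraries each called 1 block. The PoX2[Df1.688] interaction had 0 calls without normalization factors and 0 with a replicate block. As means of CPM per kb instead of sums, log2 ratios of the 3L total were 0.22 for Zhr[1] males against wild type, and 0.83, 0.47, 0.88 and 0.47 between the sexes in that order of genotypes. Over blocks of at least 500 bp the Pof[D119] sex ratio was 1.12. The cause of these moves was not tested, other than the fewer blocks of the stricter filter. Gene tests were not run under other settings.

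With each library left out, the counts of calls ran from 0 to 1 for Pof[D119] females, 1 to 3 for Pof[D119] males, 17 to 22 and 29 to 33 for Zhr[1] females and males, 16 to 20 and 15 to 25 for PoX2[Df1.688], 15 to 29, 13 to 17, 7 to 13 and 16 to 20 between the sexes in the same order of genotypes, and 0 to 1 for the PoX2[Df1.688] interaction. Same-numbered samples did not deviate together (r from -0.23 to 0.15, with at most 1 of 4 pairs over 0.1), so the numbers do not pair them, and the replicate block changed no other count by over 1.5 times. Few reads per block limit the smaller blocks: 18 of 74 could not be tested at all.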
